A study of Mus musculus with 4 samples.

Results

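Genes that bring glucose into the cell and break it down to lactate were followed in sorted hair cells and non-hair cells of the mouse cochlea, with and without the aminoglycoside antibiotic gentamicin. The set held 10 genes of the 23420 in the deposited tables. They were chosen by name: Slc2a1 for glucose uptake, Hk1, Hk2, Pfkl, Aldoa, Gapdh, Pgk1, Pgam1 and Eno1 for glycolysis, and Ldha for the step from pyruvate to lactate. All 10 had a row in every table, and all 10 had enough reads to be tested. Cochleae came from postnatal day 1 Atoh1-GFP transgenic mice of the CD1 strain, were cultured overnight in 5% O2, and then stayed untreated or received 0.5 mM gentamicin for 3 h. The organs were dissociated straight afterwards and sorted by fluorescence into GFP positive cells, labelled hair cells, and GFP negative cells, labelled non-hair cells, which gave 4 groups of 3 replicates: control hair cells, gentamicin-treated hair cells, control non-hair cells and gentamicin-treated non-hair cells. The study calls them biological replicates, without saying which animals entered each, so p-values measure the spread between these samples. All groups shared the transgene, the strain, the age, the low oxygen culture and the medium with penicillin. GFP in these mice is driven by an Atoh1 enhancer and is also weakly present in inner phalangeal cells, which the sort excluded by a strict gate, while the GFP negative fraction mixed supporting cells, epithelial ridge cells and surrounding tissue.

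Glucose enters most cells through facilitative transporters of the Slc2a family, of which Slc2a1 (GLUT1) is the widespread form and the main one at the blood-labyrinth barrier of the inner ear. Hexokinases trap glucose by phosphorylation, phosphofructokinase commits it to glycolysis, aldolase splits the sugar, and the enzymes from Gapdh to pyruvate kinase recover ATP and NADH. Lactate dehydrogenase returns NADH to NAD+ by making lactate from pyruvate. Slc2a1 and most glycolytic enzymes of this kind are known targets of the hypoxia inducible factors (HIF), and GAPDH is also a common reference gene in expression studies.

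Values are normalized read numbers, that is, reads of a gene scaled in each replicate, with 1 added to all values. From 22399851 to 28151367 reads per replicate fell on genes. The labelled cell types held against their markers: summed over 8 hair cell genes, the values were 11606–12028 in control hair cells, 9740–10812 in treated hair cells, and 212–306 over all non-hair cell replicates. Supporting cell markers were not confined to the non-hair cells. The sum of 10 such genes was 1781–2041 in control hair cells and 909–1505 in treated hair cells, against 1101–1774 in untreated and 761–1490.3 in treated non-hair cells, and 3 of the 10 were called lower in treated hair cells. Sums of 7 mesenchymal genes were 459–691 in control and 279–374 in treated hair cells, those of 5 glial genes 117–148 and 75.0–109, those of 5 endothelial genes 13.5–26.8 and 6.43–11.8, and those of 5 macrophage genes 2.04–2.52 and 11.7–17.7. Only 1 of the 5 macrophage genes was called higher. Log2 differences in that list ran from -0.01 to 2.52, with a median of 0.05. Sums of 7 red blood cell genes were 0.737–4.23 and 0.618–24.9, and those of 5 melanocyte genes 12.7–15.8 and 11.1–12.3. Some markers of the last 2 lists were at 0 reads in hair cell replicates, and none of the supporting cell, mesenchymal, glial, endothelial or macrophage lists were. The part of these cells in the differences below was not tested. In such bulk samples, fewer cells of a type and less RNA per cell cannot be told apart.

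A treated replicate in each population stood far below the others for these genes, and it has to be named before any comparison. Gentamicin-treated hair cell replicate 3 had the lowest value of the 3 treated replicates for 10 of 10 genes, and its median over the genes was 22.2% of the control mean. Gentamicin-treated non-hair cell replicate 2 was likewise lowest for 10 of 10 genes, with a median of 24.7% of the control mean. In each of these replicates 9 of the 10 genes were more than 2-fold below their controls. Of all genes tested, 3.11% and 5.08% were that far below in the same 2 replicates, and the median gene differed from its controls by -0.08 and 0.00 on the log2 scale. In treated hair cell replicate 3 the supporting cell sum was 1505 and the hair cell sum 10441, and in treated non-hair cell replicate 2 the mesenchymal sum was 9395 and the supporting cell sum 760.5. Their part in the low values was not tested. The number of reads on genes was 26947358 and 27065550 in these 2 replicates. Results are given with and without them, and the choice to leave them out was made after the values of the 10 genes had been seen.

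Levels in the control cells are compared between genes only per kb of exon. In control hair cells Gapdh, which encodes glyceraldehyde-3-phosphate dehydrogenase, had the highest level, 1075 normalized reads per kb. Aldoa (569) and Pgam1 (513) came next and overlapped each other in their replicates, followed by the overlapping pair Ldha (283) and Pgk1 (274). Eno1 (172), Pfkl (96.6), Slc2a1 (49.9), Hk1 (31.6) and Hk2 (11.5) were each separated from the next gene by their replicates. Eno1b, a near-identical copy of Eno1, had 185 per kb here and 463 in control non-hair cells. How reads matching both copies were counted is not given, so the level and rank of Eno1 are uncertain. Control non-hair cells had the same genes at the top and bottom but another order between. Pgk1 (671), Ldha (651) and Aldoa (592) per kb stood above Pgam1 (475), neighbours among the first 3 overlapped, and Gapdh reached 1675 and Hk2 18.4. Together the 10 genes took 0.542–0.652% of all reads on genes in control hair cells and 0.817–1.00% in control non-hair cells.

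Control hair cells had lower levels than control non-hair cells for 8 of the 10 genes, with no overlap between replicates, and 2 differences passed the test. The test was limma on log2 values with all 12 replicates in 1 model, and a population difference was called at a Benjamini-Hochberg adjusted p under 0.05. Ldha, the muscle-type lactate dehydrogenase subunit, had 545, 583 and 486 normalized reads in hair cells and 1437, 1188 and 1079.6 in non-hair cells, both untreated. Every hair cell value lay below every non-hair cell value, and the log2 difference of hair cells minus non-hair cells was -1.19 ± 0.50 (SE, adjusted p = 0.0478). Hk1, the hexokinase of brain and most other tissues, had 152, 171 and 139 in hair cells and 215, 251 and 203 in non-hair cells, a log2 difference of -0.53 ± 0.18 (adjusted p = 0.0195). Of all genes tested 74.1% were called in this comparison, and 42.2% were called lower in hair cells, a larger share than 2 of 10. Replicates wholly lower in hair cells were found for 44.6% of all genes. Pgk1, phosphoglycerate kinase, had a wider separation, 488, 561 and 456 against 1344, 1198 and 1135, at -1.29 ± 0.66 (adjusted p = 0.0970). Slc2a1 had 161, 172 and 158 against 260.2, 315 and 277 (-0.79 ± 0.41, adjusted p = 0.0988). These replicates did not overlap either, but the spread used by the test comes from all 4 groups and includes the 2 low treated replicates. Without those 2 replicates 7 genes were called lower in hair cells, where 43% of all genes were called lower. They were Slc2a1, Hk1, Pfkl, Gapdh, Pgk1, Eno1 and Ldha. Aldoa and Pgam1 were the genes with overlapping populations. Pgam1 had 907, 961 and 868 in control hair cells and 885, 860.5 and 785 in control non-hair cells (0.11 ± 0.51, adjusted p = 0.849), and the difference of Aldoa was -0.06 ± 0.51 (adjusted p = 0.926). Scaling by the median of ratios moved the median of all genes in this comparison from -0.12 to -0.01, and the median of the 10 genes from -0.65 to -0.52, with 0 of 10 called.

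**Figure D1:**
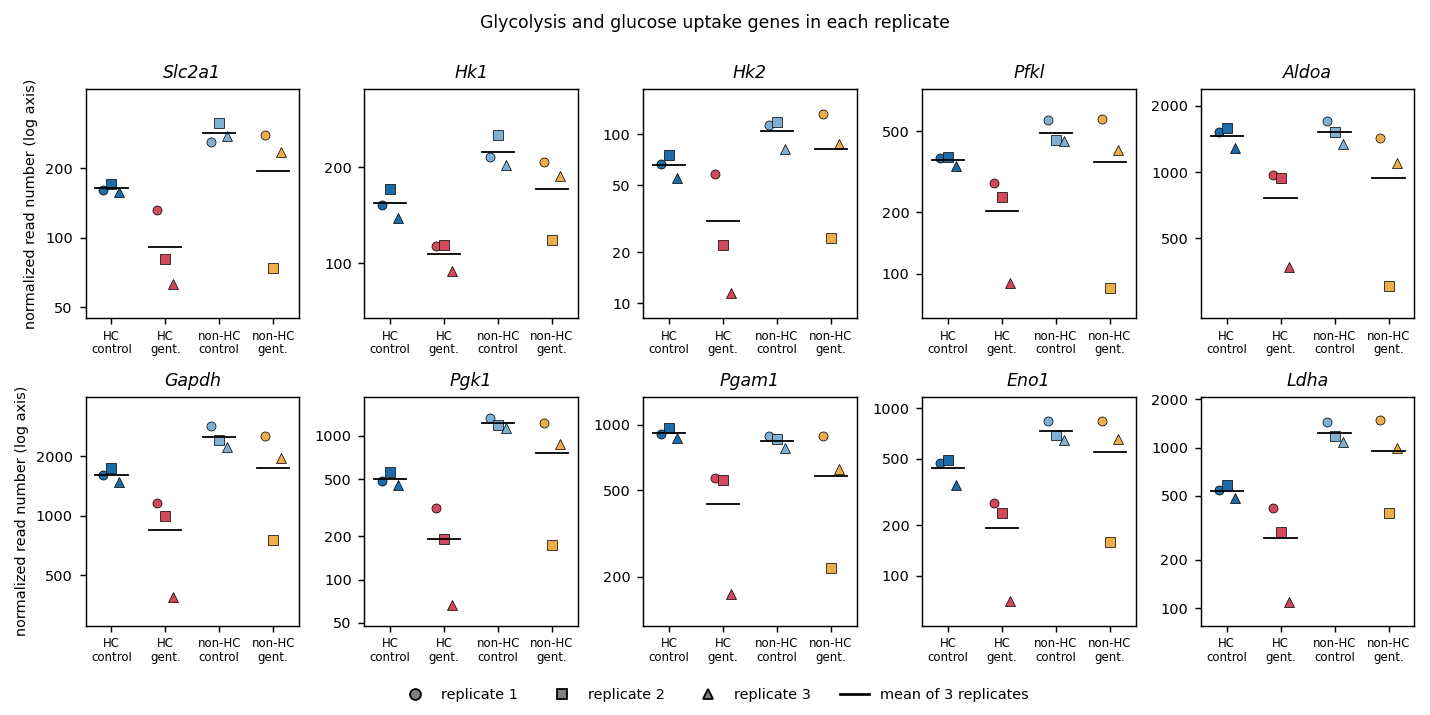
Normalized read number (log axis, a scale of its own for each gene) of the 10 genes in the 3 replicates of each group; HC is hair cells and gent. is gentamicin, symbols give the replicate number, and black lines give the mean of 3 replicates. In hair cells the treated replicates lie below all controls for every gene except Hk2, with replicate 3 lowest, and in non-hair cells replicate 2 lies below the other 5 replicates for every gene.

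Gentamicin-treated hair cells had lower levels than control hair cells for all 10 genes. The log2 differences ran from -0.53 to -1.66, with a median of -1.12, while the median over all genes tested was -0.09. By the criteria of the study, which ask for p under 0.01 without adjustment and more than 1.2-fold change, limma called 0 of the 10, against 27.5% of all genes in either direction and 14.8% as lower. At an unadjusted p under 0.05, 8 of the 10 were lower, as were 25.9% of all genes tested. Voom weights gave 0 of 10 by the first criteria. The replicates of the 10 genes were far apart in the treated group, and the values of each gene are therefore given before its test.

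For uptake, Slc2a1 (chr4:119108711-119137983 of GRCm38, plus strand) had 161, 172 and 158 normalized reads in the control hair cells and 131, 80.7 and 63.0 in the treated replicates 1, 2 and 3. All treated values lay below all controls, and replicates 2 and 3 were well below replicate 1. The log2 difference was -0.90 ± 0.41 (limma, p = 0.0485, adjusted p = 0.111), and the exact permutation test of the 3 against 3 values gave p = 0.1, the smallest it can give in this design.

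The hexokinases catalyse the first step. Hk1 (chr10:62268855-62379908, minus strand) had 152, 171 and 139 in controls and 113, 114 and 94.3 after gentamicin. Its treated replicates were closer together than those of any other gene of the set, and it was the only one with an adjusted p under 0.05 (log2 difference -0.53 ± 0.18, adjusted p = 0.0445), as were 33.2% of all genes tested. Hk2 (chr6:82725025-82774454, minus strand), the inducible hexokinase, had 66.9, 75.5 and 54.9 in controls and 58.2, 22.2 and 11.5 in treated replicates. Replicate 1 fell within the controls, and Hk2 was the only gene whose groups overlapped (-1.41 ± 0.61, adjusted p = 0.0994). Per kb, Hk1 made up 72.6–74.8% of the sum of the pair in control hair cells and 69.4, 86.0 and 91.2% in treated replicates 1, 2 and 3.

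Pfkl and Aldoa act in the upper part of the pathway. Pfkl (chr10:77986947-78010083, minus strand), the liver-type phosphofructokinase, had 370.1, 375 and 339 in controls and 279, 239 and 90.6 after gentamicin. The groups did not overlap, yet the distance between treated replicates 2 and 3 exceeded that between replicate 2 and the controls, and the difference of -0.99 ± 0.60 had the largest p of the set (0.125, adjusted p = 0.225). Aldoa (chr7:126795234-126809108, minus strand), fructose-bisphosphate aldolase A, had 1517, 1589 and 1279.6 against 969, 939 and 371 (-1.06 ± 0.51, adjusted p = 0.129). Treated replicates 1 and 2 nearly coincided, and replicate 3 was again far lower.

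In the lower part of the pathway the differences ran from -1.06 for Gapdh to -1.66 for Pgk1. Gapdh (chr6:125161715-125166467, minus strand) had 1614, 1734 and 1475 in controls and 1158, 1001 and 389 in treated hair cells. Its treated replicates were at 72.0, 62.3 and 24.2% of the control mean, a log2 difference of -1.06 ± 0.45 (adjusted p = 0.0912). Pgk1 (chrX:106187100-106203699, plus strand), which makes the first ATP of the pathway, had 488, 561 and 456 against 315, 190.3 and 66.7. Its difference of -1.66 ± 0.66 was the largest of the 10 (adjusted p = 0.0749), and replicate 3 kept 13.3% of the control mean. Pgam1 (chr19:41911923-41918660, plus strand), the phosphoglycerate mutase of most tissues, had 907, 961 and 868 against 571, 560.2 and 167 (-1.27 ± 0.51, adjusted p = 0.0750). Here replicates 1 and 2 were alike, at 62.6 and 61.4% of the control mean.

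Eno1 (chr4:150236721-150248879, plus strand), enolase 1, had 474, 493 and 349.9 in control hair cells and 273, 238 and 70.3 after gentamicin. None of the treated values reached the lowest control, and the difference was -1.39 ± 0.59 (adjusted p = 0.0940). Its near-identical copy Eno1b, listed in the files as Gm5506, had 337, 375 and 332 in controls and 230.4, 233 and 66.4 after gentamicin. How reads that match both copies were counted is not given in the sources used here, so the level of each is uncertain. Their sum was 681–867 in controls and 503, 470 and 136 in the treated replicates, the same order as Eno1 by itself. Ldha (chr7:46841475-46855627, plus strand) had 545, 583 and 486 in controls and 419.9, 298 and 109 in treated hair cells. It was lower in 3 of 3 treated replicates (-1.17 ± 0.50, adjusted p = 0.0934). Processed copies of Gapdh, Pgk1, Aldoa and Ldha are also common in the mouse genome, and the same uncertainty holds for short single-end reads from these genes.

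**Figure D2:**
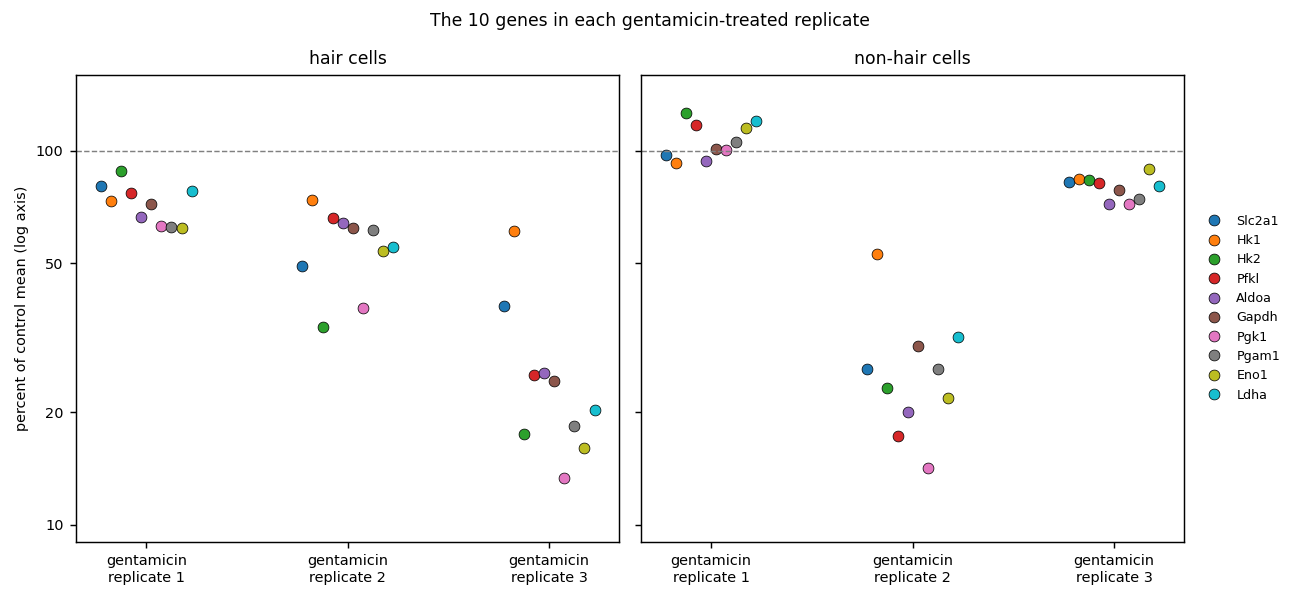
Level of each of the 10 genes in each gentamicin-treated replicate, as percent of the mean of the 3 controls of the same population (log axis); the dashed line marks 100%, and colours give the gene. Medians over the genes are 72.7, 58.4 and 22.2% in hair cell replicates 1, 2 and 3, and 103, 24.7 and 81.3% in non-hair cell replicates 1, 2 and 3.

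In the 3 treated hair cell replicates the 10 genes were at 62.3–88.5%, 33.8–73.7% and 13.3–61.2% of their control means. In each of the 3 replicates 10 of 10 genes were below the control mean, as were 58.5, 58.0 and 59.6% of all genes tested. Groups that did not overlap, with treated values wholly lower, were found for 9 of the 10 genes and for 33.1% of all genes tested. Leaving out both low replicates kept all 10 differences negative, with a median of -0.64, and called 6 genes as lower, where 15.3% of all genes were called lower: Slc2a1, Hk1, Aldoa, Pgk1, Pgam1 and Eno1. In the same fit 7 of 10 supporting cell markers were called lower, with a median of -1.01. So were 3 of 5 glial, 2 of 7 mesenchymal, 1 of 8 hair cell and 1 of 4 melanocyte markers. Calls were 0 of 5 for endothelial markers (median -0.78) and 0 of 6 for red blood cell markers (median 0.66). Of 5 macrophage markers 1 was called higher and 0 lower. The part of these cells in the differences of the 10 genes was not tested. In this fit Pgk1 had a log2 difference of -1.03 ± 0.22 (adjusted p = 0.00677) and Pgam1 -0.69 ± 0.14 (adjusted p = 0.00666). Pfkl (adjusted p = 0.0451), Gapdh (adjusted p = 0.0357), Ldha (adjusted p = 0.0514) and Hk2 (adjusted p = 0.0950) were not called. Leaving out the low non-hair cell replicate by itself left the hair cell values as they were and narrowed the shared spread, and 7 of 10 were called, where 16.5% of all genes were called lower. The call for the set in hair cells thus depended on whether a library of the other population was in the fit, whereas the direction did not.

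In non-hair cells the low values lay mainly in treated replicate 2. Of the 10 genes, 3, 10 and 10 were below the control mean in treated replicates 1, 2 and 3, where 49.7, 49.4 and 52.1% of all genes tested were. The medians of the 10 genes were 103, 24.7 and 81.3% of the control mean. Their fitted differences were negative for all 10 genes, from -0.42 to -1.09 with a median of -0.73, against -0.01 over all genes tested. None of the 10 was called by limma, 1 (Hk1) had an unadjusted p under 0.05, while 5.44% of all genes were called and 8.27% were lower at the unadjusted limit. Voom weights also called 0 of 10. Values of treated replicates 1 and 3 lay among or near the controls. Slc2a1 had 260.2, 315 and 277 without the drug and 278, 74.3 and 235 with it. Replicate 1 was within the controls, replicate 3 slightly below them, and replicate 2 at 26.1% of their mean (-0.74 ± 0.41, adjusted p = 0.375). Ldha had 1437, 1188 and 1079.6 against 1485, 392 and 997, so that the highest and the lowest of the 6 values were both treated (-0.56 ± 0.50, adjusted p = 0.600). Pgk1 had 1344, 1198 and 1135 against 1233, 173 and 885 (-1.09 ± 0.66, adjusted p = 0.422). Gapdh had 2858, 2426 and 2230.4 against 2538, 751 and 1963 (-0.68 ± 0.45, adjusted p = 0.467). Hk1 had 215, 251 and 203 against 208, 118 and 188, and its 53.0% of the control mean in replicate 2 was the highest of the set. All 10 genes had overlapping groups, while 7.68% of all genes had treated values wholly below control. Without the low replicates the median difference was -0.15, 8 of 10 were negative, 0 were called and 0 had an unadjusted p under 0.05 by limma, where 2.94% of all genes were called, and the differences lay between -0.27 (Aldoa) and 0.06 (Hk2).

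**Figure D3:**
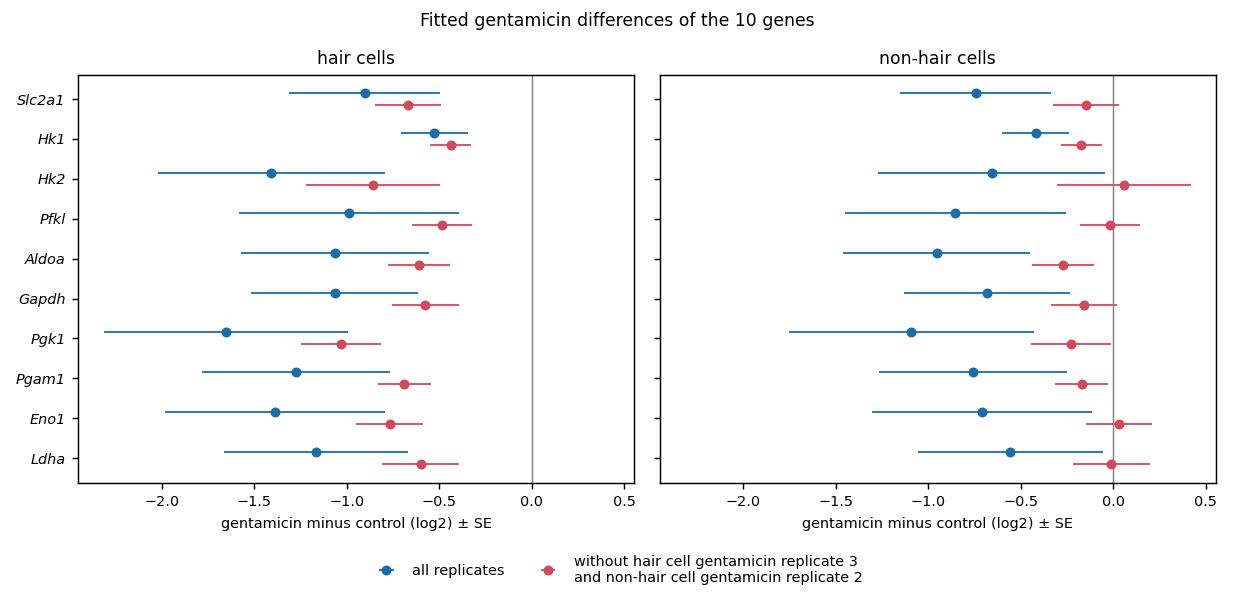
Log2 difference of gentamicin minus control for the 10 genes from limma, with bars of 1 SE, in hair cells (left) and non-hair cells (right), with all replicates and without the 2 low replicates. In hair cells all points stay below 0 in both fits, whereas in non-hair cells they move from a median of -0.73 to a median of -0.15.

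The responses of the populations did not differ by the test. The difference of the log2 responses, hair cells minus non-hair cells, was negative for all 10 genes with a median of -0.45, against -0.07 over all genes, but limma gave 0 genes with an adjusted p under 0.05 and 0 with an unadjusted p under 0.05, where 13.4% of all genes passed at adjusted p. The widest was Hk2 at -0.75 ± 0.87. Without both low replicates the median was -0.52 and 3 genes had an unadjusted p under 0.05: Eno1 (-0.80 ± 0.25, adjusted p = 0.0694), Pgk1 (-0.80 ± 0.31, adjusted p = 0.114) and Pgam1 (-0.52 ± 0.20, adjusted p = 0.124). None passed at adjusted p, where 12.5% of all genes did. The sign and size of the median depended on which single libraries were in the fit. It was 0.07 without treated hair cell replicate 3, -0.02 without treated non-hair cell replicate 1 and -1.04 without treated non-hair cell replicate 2.

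The isoenzymes of the 10 genes were not all low in the low replicates. Ldhb, the heart-type lactate dehydrogenase subunit, had 230–256 normalized reads per kb in control hair cells and 242, 198 and 199 in treated replicates 1, 2 and 3, which overlapped. Its log2 difference was -0.18 ± 0.11 (adjusted p = 0.249) in hair cells and -0.14 ± 0.11 (adjusted p = 0.552) in non-hair cells. Because Ldha was lower and Ldhb hardly moved, the share of Ldha in the pair, per kb, was 52.7–54.8% in control hair cells and 47.7, 44.1 and 22.2% in the treated ones. In non-hair cells the share was 74.1–82.1% in controls and 83.0, 58.9 and 73.7% in treated replicates. In the control cells Ldhb was higher in hair cells than in non-hair cells (log2 difference 0.42 ± 0.11, adjusted p = 0.00605), the opposite direction to Ldha.

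Pgam2, the muscle-type mutase, was the isoenzyme that set the populations furthest apart. It had 201 ± 15.2 normalized reads per kb (SD, n = 3) in control hair cells against 3.74 ± 0.23 in the non-hair cell controls, and the log2 difference was 5.36 ± 0.23 (adjusted p = 2.5e-09). It made up 26.7–29.1% of the mutase level per kb in control hair cells and 36.8, 37.9 and 56.8% in the treated ones, against 0.73–0.90% in control non-hair cells. After gentamicin its own values in hair cells were 187, 192 and 123 per kb, overlapping the controls (-0.29 ± 0.23, adjusted p = 0.359).

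Of the other isoenzymes, Slc2a3, Pfkp, Aldoc and Eno2 followed the set more closely than Pfkm and Eno3 did. Slc2a3, the high-affinity transporter of neurons, had 27.0, 38.5 and 24.4 normalized reads in control and 23.1, 6.31 and 3.42 in treated hair cells. Its values in non-hair cells were 68.3, 105 and 60.5 without the drug and 56.6, 9.77 and 37.1 with it. It did not overlap in either population, and was not called in either (-1.89 ± 0.69, adjusted p = 0.0563, and -1.47 ± 0.69, adjusted p = 0.307). Pfkp, the platelet-type phosphofructokinase, had 322, 406 and 348 in control hair cells and 203, 204 and 75.6 after gentamicin (-1.29 ± 0.58, adjusted p = 0.107), whereas the muscle type Pfkm had 107, 115 and 103 against 80.9, 95.9 and 70.6 and was called lower (-0.40 ± 0.13, adjusted p = 0.0305). The treated replicates of Pfkm differed less from each other than those of Pfkp. Aldoc made up 4.03–4.23% of the aldolase level per kb in control hair cells, and its 76.9, 78.3 and 66.5 against 60.5, 32.0 and 30.5 gave -0.92 ± 0.39 (adjusted p = 0.0894). Eno2, the neuronal enolase, had 107.8 ± 23.4 per kb in control hair cells and 100.1 ± 27.4 in control non-hair cells, and its difference in treated hair cells was -0.93 ± 0.48 (adjusted p = 0.160). Eno3, the muscle enolase, was low throughout, with 18.9, 22.3 and 22.9 normalized reads in control hair cells, and was called lower after gentamicin at 11.8, 13.4 and 12.7 (-0.76 ± 0.17, adjusted p = 0.00634).

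**Figure D4:**
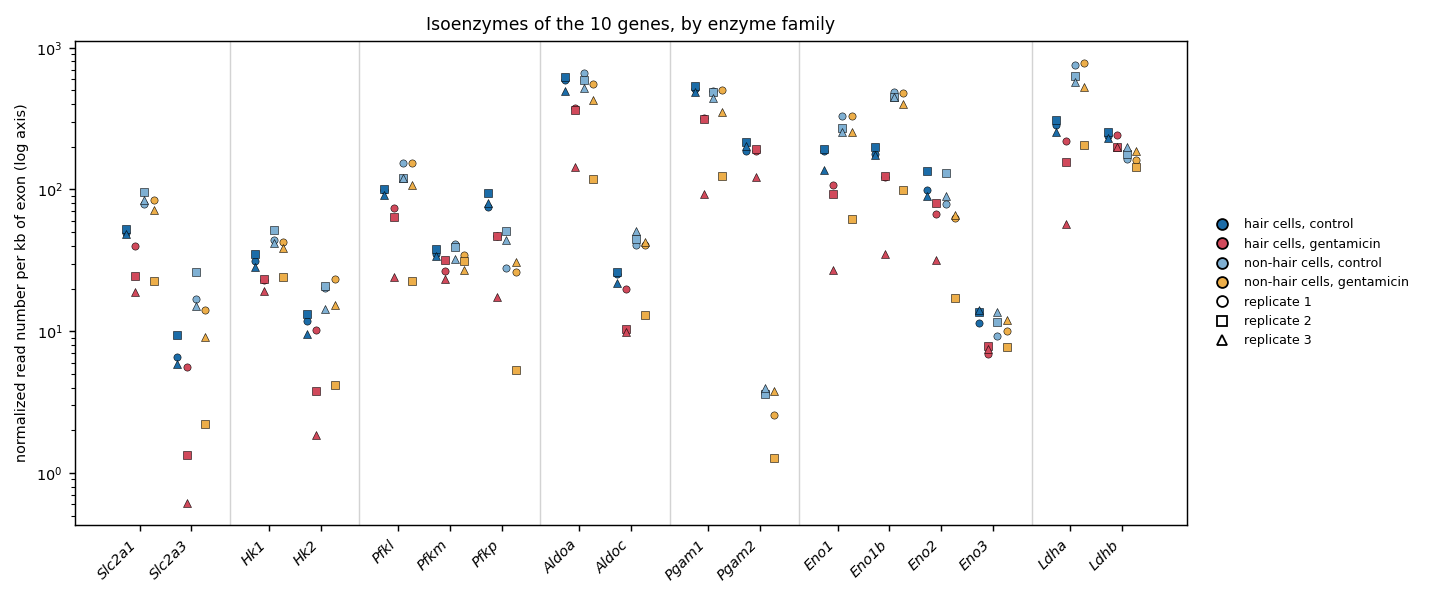
Normalized read number per kb of exon (log axis) of the 10 genes' isoenzymes, grouped by enzyme family with grey lines between families; colours give the group and symbols the replicate. Pgam2 is at 201 per kb in control hair cells and 3.74 in control non-hair cells, and Ldhb keeps 144–256 per kb over all 12 replicates while Ldha spans 56.9 to 783.

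The rest of the pathway was read from 10 lists of neighbouring genes. Of the 99 genes tested in them, 22 were called in hair cells (22.2%), where 27.5% of all genes were, and 4 in non-hair cells (4.04%), where 5.44% were. Without both low replicates 35 were called in hair cells (35.4%), where 28.3% of all genes were. The counts of single lists below are a description and are not set apart from these shares. Among 17 other glycolytic enzymes tested in hair cells, 4 were called lower and 1 higher, with a median of -0.75. Pfkm and Eno3, described above, were among the lower ones, and the enzyme called higher had a mean under 5. Many of the 17 enzymes were also low in the 2 low libraries. Their median was 59.2% of control in treated hair cell replicate 3 and 49.9% in treated non-hair cell replicate 2. In these replicates 8 and 9 of the 17 were more than 2-fold below control. Each was the lowest treated replicate of its population for 11 of the 17. Of 9 other glucose transporters 1 was called, Slc2a10, at 8.40, 8.16 and 8.65 in control and 6.33, 3.72 and 6.14 in treated hair cells (-0.68 ± 0.19, adjusted p = 0.0197). In non-hair cells limma called 0 of the 17 enzymes, of which 2 had an unadjusted p under 0.05, and 0 of the 9 transporters, of which 0 did. Among 7 Pfkfb, Tigar and Fbp genes, 1 was called lower in hair cells, Pfkfb4 (-0.48 ± 0.12, adjusted p = 0.0136), with 84.1, 86.0 and 82.4 against 60.1, 75.2 and 48.8. For lactate transport, 0 of 5 genes were called by limma in either population, and 2 in hair cells and 0 in non-hair cells had an unadjusted p under 0.05. Slc16a3 (MCT4), a lactate exporter chosen here after its values were seen, had 128, 144 and 109.9 in control and 89.8, 41.6 and 5.03 in treated hair cells, and in non-hair cells 249.97, 241 and 188 against 261, 5.46 and 155. Slc16a3 thus had its lowest values in the same 2 libraries as the 10 genes. The median of the 5 lactate transport genes was 64.2% of control in treated hair cell replicate 3, with a highest value of 135%. In treated non-hair cell replicate 2 the median was 64.0% and the highest value 116%.

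In the pentose phosphate pathway the called genes had treated replicates close together. Of 8 pentose phosphate pathway genes 3 were called lower in hair cells: Tkt, transketolase, had 140.0, 155 and 123 against 107, 106 and 111 (-0.36 ± 0.08, adjusted p = 0.00585), and H6pd (-0.97 ± 0.13, adjusted p = 0.000353) and Pgls (-0.52 ± 0.09, adjusted p = 0.00203) were the other two called. In non-hair cells 1 gene of this list was called, Pgd, 6-phosphogluconate dehydrogenase, which was higher at 157, 156 and 158 after 136, 111 and 124 (0.35 ± 0.08, adjusted p = 0.0806). Medians of the list in the low replicates were 84.0% of control in hair cells and 109% in non-hair cells, against 22.2% and 24.7% for the 10 genes. For pyruvate entry and pyruvate dehydrogenase, 13 genes gave 2 higher and 2 lower in hair cells. Pdk2 (-0.62 ± 0.11, adjusted p = 0.00185) and Pdk3 (-0.64 ± 0.12, adjusted p = 0.00207), kinases that switch pyruvate dehydrogenase off, were lower, and Pdhx (0.34 ± 0.07, adjusted p = 0.00494) and Dld (0.28 ± 0.09, adjusted p = 0.0272), subunits of the complex, were higher. Of 10 glycogen genes 2 were called lower and 1 higher, the lower ones being Pygl, liver glycogen phosphorylase (-1.07 ± 0.33, adjusted p = 0.0271), and Gyg, glycogenin (-0.35 ± 0.11, adjusted p = 0.0293). Medians of the pyruvate and glycogen lists were 95.8% and 104% of control in treated hair cell replicate 3. In treated non-hair cell replicate 2 they were 101% and 78.1%. Single genes of these lists were nevertheless low in the same 2 libraries as the 10 genes. Pygl was at 62.1, 48.4 and 35.6% of control in treated hair cell replicates 1, 2 and 3 and at 83.0, 31.1 and 82.6% in non-hair cells. Pdk1, a kinase of pyruvate dehydrogenase chosen after its values were seen, was at 68.1, 58.4 and 24.0% and at 102, 25.4 and 63.4%. Chosen in the same way, Pgm2, a phosphoglucomutase, had 66.0, 64.6 and 29.6% in hair cells and 119, 44.7 and 79.9% in non-hair cells.

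Genes of the hypoxia response that take no part in glycolysis were low in the same 2 libraries. Any part of HIF in these low values was not tested. The list held 15 known HIF targets. Their median was 75.6, 55.1 and 30.3% of control in treated hair cell replicates 1, 2 and 3, and 106, 27.4 and 67.8% in treated non-hair cell replicates 1, 2 and 3. Replicate 3 was the lowest treated replicate for 15 of 15 in hair cells and replicate 2 for 15 of 15 in non-hair cells. By the criteria of the study 1 of the 15 was called in hair cells and 0 in non-hair cells by limma, with 6 and 2 at an unadjusted p under 0.05. The called gene was P4ha2, a collagen prolyl hydroxylase subunit, with 36.3, 53.3 and 28.1 in control and 20.7, 12.2 and 5.28 in treated hair cells (-1.78 ± 0.53, adjusted p = 0.0234). Car9, carbonic anhydrase 9, singled out after its values were seen, had 65.0, 79.7 and 68.8 against 44.2, 22.3 and 1.39, and in non-hair cells 97.9, 130.4 and 117 against 101, 6.90 and 78.2. Of the 10 HIF subunits and hydroxylases, Hif1a itself was called higher in hair cells, at 158, 137 and 173 in control and 211, 183 and 212 in treated replicates (0.37 ± 0.10, adjusted p = 0.0168). Replicate 3, low for the 10 genes, was as high for Hif1a as replicate 1. Without both low replicates Hif1a was not called (0.34 ± 0.12, adjusted p = 0.0576). Egln3, an oxygen-sensing HIF hydroxylase chosen after its values were seen, was at 105, 32.0 and 11.5% of control in treated hair cell replicates 1, 2 and 3 and at 133, 15.4 and 53.0% in non-hair cells. The median of the 10 HIF subunits and hydroxylases was 98.7% in treated hair cell replicate 3 and 95.3% in treated non-hair cell replicate 2. In non-hair cells Hif3a was called lower (-0.36 ± 0.10, adjusted p = 0.117), and was not without the low replicates (-0.27 ± 0.10, adjusted p = 0.362). Among 5 genes of glucose sensing, Mlx was higher (0.39 ± 0.10, adjusted p = 0.0128) and Mlxip lower (-0.42 ± 0.08, adjusted p = 0.00238) in hair cells, 1 more was called lower in hair cells with a mean under 5, and Txnip (-0.94 ± 0.18, adjusted p = 0.0623) and Arrdc4 (-0.53 ± 0.17, adjusted p = 0.155), whose transcription answers to sugar phosphates, were lower in non-hair cells.

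**Figure D5:**
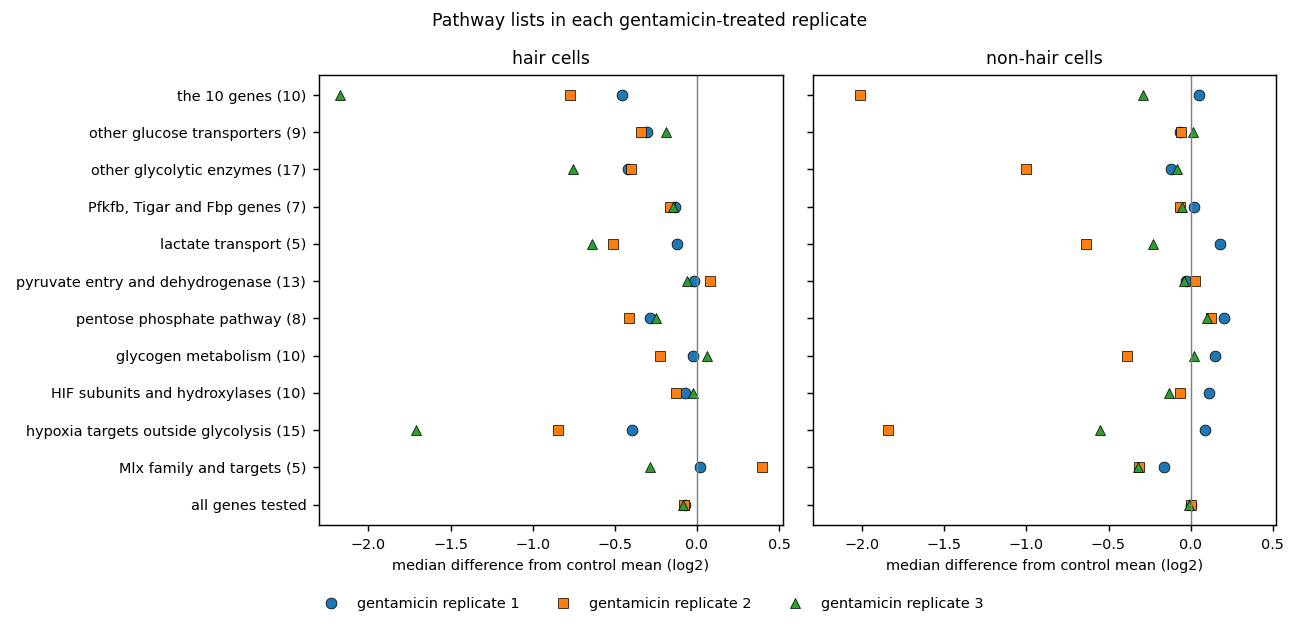
Median log2 difference from the control mean in each gentamicin-treated replicate for the 10 genes, for 10 lists of neighbouring genes (number tested in brackets) and for all genes tested, in hair cells (left) and non-hair cells (right). The 10 genes and the hypoxia targets outside glycolysis reach -2.17 and -1.71 in hair cell replicate 3, and -2.01 and -1.84 in non-hair cell replicate 2, while the median of all genes stays at 0.00 to -0.08 in those replicates.

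The promoters of the 10 genes are shown for the core of the hypoxia response element, the letters ACGTG on either strand. RefSeq windows of 300 bases, 250 before and 50 after each annotated start, were on hand for 10 of 10 genes (16 windows, build GRCm38.p6). The core was found in 9 of the 16 windows, from 8 genes, and in 19.6% of the 32851 windows of all genes. Among the 9 were the overlapping windows of Aldoa starts 1 and 2, which held the same match. Pfkl and Eno1 had none in these windows, and in Hk1 and Gapdh the matches lay after the start. The start meant here is the RefSeq start of each window, which can differ from the end of the gene span printed above. For Slc2a1 (119108745), Aldoa (126799178 and 126799254) and Ldha (46845804) it lies inside that span. The stretches of Aldoa and Ldha thus lie within the printed spans, and that of Slc2a1 lies partly within. The stretches below hold the matches before the window's start, 5′ to 3′ along the gene, with the core in capitals. Where the E-box CACGTG contains it, 6 letters are in capitals.
Slc2a1, chr4:119108697-119108725, plus strand: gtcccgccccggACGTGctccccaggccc
Hk2, chr6:82774664-82774692, minus strand: agccacggaacaCACGTcccaactctggc
Hk2, chr6:82774490-82774518, minus strand: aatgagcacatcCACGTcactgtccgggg
Aldoa, chr7:126799364-126799392, minus strand: tgtggctcgagtCACGTcctagcggggcg
Pgk1, chrX:106186938-106186985, plus strand: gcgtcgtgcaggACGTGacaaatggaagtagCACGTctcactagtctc
Pgam1, chr19:41911745-41911773, plus strand: cgctccttgcttACGTGcgctccgtgact
Ldha, chr7:46845647-46845676, plus strand: ggtgtcgcagcaCACGTGgagccactcttg
Ldha, chr7:46845744-46845786, plus strand: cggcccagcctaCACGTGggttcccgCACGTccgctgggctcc

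Ldha held 3 such sites in 1 window, the most of the set, and was the only gene with the E-box CACGTG, which 7.15% of all windows contain. The AP-1 motif TGANTCA was in 1 of the 16 windows, of Aldoa, and in 7.81% of all windows. A match is a description of the letters only, and whether HIF acted on these genes here was not tested.

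The genes whose levels ran most like Slc2a1 and Ldha over the 12 replicates were looked up among 13065 genes tested with a mean of at least 5. Likeness was the root mean square difference of log2 values, each centred on the mean of its gene, over 12 replicates that share 3 controls and 3 treated libraries per population. Nearest to Slc2a1 were Aldoc (0.15), Mapk13 (0.25) and Gapdh (0.25), where the median gene was at 0.87. Nearest to Ldha were Mif (0.18), Tpi1, triosephosphate isomerase (0.20), and Eno1b (0.20), with the median gene at 1.10.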

How the data were processed

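Transcripts of sorted cells from 4 groups with 3 replicates each were sequenced as polyadenylated RNA. Per the labels and the methods of the study, the authors aligned reads to the mouse genome mm10 with TopHat 2 and counted them in PartekFlow. The deposited values are scores: reads scaled within each replicate by a factor not given in the sources used here, plus an offset of 1. The methods name RPKM, but the values showed no division by gene length. Here reads were recovered approximately from the smallest steps of each replicate, and 16077 of 23420 genes with at least 100 recovered reads were tested. The log2 values of the 4 groups entered 1 model in limma 3.58.1 (R 4.3.3), with empirical Bayes moderation, a variance trend, two-sided tests and Benjamini-Hochberg adjustment over all genes tested. Gentamicin differences were called at p under 0.01 and a fold change above 1.2, and differences between populations or between responses at an adjusted p under 0.05. Levels per kb used exon lengths of GENCODE M21. All 10 genes were named, and from each other list up to 4 genes called per gentamicin comparison with a mean of at least 5 and the largest changes, plus uncalled isoenzymes; 1 gene that this rule names is not reported here. The genes and lists were chosen with earlier results of these data known. Deviations from group means correlated between same-numbered controls of the populations (0.22, 0.32 and 0.20), so the numbers paired these samples, but not between control and treated hair cells (0.04, 0.05 and 0.04), control and treated non-hair cells (0.21, -0.23 and 0.68) or the treated populations (0.38, -0.04 and -0.02). The fit was tested on simulated data. Alternatives covered scaling, offset, read minimum, groups in the fit, variance model, replicate block, call rule and each replicate left out.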

Additional observations from a re-analysis of the deposited data

Results flagged for a closer look

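The responses to gentamicin differed between hair cells and non-hair cells, by the interaction term in limma with adjusted p under 0.05, for 9 genes of the neighbouring lists and for none of the 10 glycolysis and uptake genes, of which 0 had an unadjusted p under 0.05. These 9 were 9.09% of the 99 genes tested in the lists, below the 13.4% of all genes that passed. Values are the log2 response of hair cells minus that of non-hair cells. Five-carbon sugar genes made up most of them, all with a more negative response in hair cells: H6pd at -0.97 (adjusted p = 0.00812), Pgls at -0.69 (adjusted p = 0.00861), Pgd at -0.53 (adjusted p = 0.0126), G6pdx at -0.51 (adjusted p = 0.0430) and Tkt at -0.44 (adjusted p = 0.0289), which did not pass without the 2 low replicates (-0.46, adjusted p = 0.0543). The pyruvate dehydrogenase kinases Pdk3 at -0.75 (adjusted p = 0.0147) and Pdk2 at -0.60 (adjusted p = 0.0300) had the same direction. Txnip at 0.98 (adjusted p = 0.0300) and Arrdc4 at 0.90 (adjusted p = 0.0300) had the opposite one.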

How the results depend on the processing

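In hair cells all 10 differences stayed negative under every alternative run. The 0 genes called became 3 with the compared groups alone, 1 at adjusted p under 0.05, 6 without both low replicates, which was chosen after seeing the data, and 0 to 7 when each replicate was left out. With equal total reads, 3 genes in place of 8 had an unadjusted p under 0.05. In non-hair cells 0 to 1 were called with replicates left out, and without treated replicate 2, with or without hair cell replicate 3, Hk2 (0.059) and Eno1 (0.031) turned positive, their lowest values being -1.16 and -1.17 without treated replicate 1. For the difference of responses 0 were called throughout. Its sign turned without treated hair cell replicate 3 for Slc2a1 (0.08), Pfkl (0.37), Aldoa (0.35), Gapdh (0.11), Pgk1 (0.062) and Pgam1 (0.071), without treated non-hair cell replicate 1 for Slc2a1 (0.20), Hk1 (0.051), Pfkl (0.41) and Aldoa (0.33), and without treated non-hair cell replicate 3 for Slc2a1 (0.08), Pfkl (0.15) and Aldoa (0.14). Without treated non-hair cell replicate 2 the values of these genes were lowest, -0.75 (Slc2a1), -0.35 (Hk1), -0.97 (Pfkl), -0.79 (Aldoa), -0.91 (Gapdh), -1.43 (Pgk1) and -1.10 (Pgam1). Between control populations the 2 called became 8 with those groups alone, 7 without both low replicates, 1 with a minimum of 1 read or no variance trend, 0 with median of ratios scaling or voom weights, and 0 to 4 with replicates left out. Aldoa turned positive with median of ratios scaling (0.070), voom weights (0.069), and without control replicate 3 of hair cells (0.037) or 1 of non-hair cells (0.032), and was -0.14 without control replicate 3 of non-hair cells. The causes were not tested. A replicate block in the fit, which tied the same number across all 4 groups, gave 0, 0 and 2 genes called in hair cells, non-hair cells and between populations. It changed no call of these genes. The pairing seen between the control populations was not fitted by itself, and the main comparison of these populations was unpaired. Without both low replicates 8 in place of 5 other glycolytic enzymes, 4 in place of 1 hypoxia targets and 3 in place of 0 lactate transport genes were called in hair cells, and Pfkm and Dld were not called (adjusted p = 0.114 and 0.0460). Reads recovered approximately give no counting interval.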
